A study of Mus musculus with 2 samples.

Results

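The Alk and Col11a1 nuclei were 198 of 4395 nuclei on the arcuate nucleus (ARC) side of 1 pooled library (4.51%, exact binomial 95% interval 3.91 to 5.16). A nucleus was a member if it held a unique molecular identifier (UMI, a tag that stands for 1 captured RNA molecule) in at least 4 of 8 genes. These rule genes were Alk, Gpc3, Tmem132cos, Pcsk5, Cdh9, 2700069I18Rik, Plekhh2 and Col11a1. The other 4197 ARC-side nuclei served for comparison.

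The study describes the nuclei as from the micro-dissected ARC of male wild-type C57BL/6J mice aged 10 to 12 weeks. NeuN, an antigen of neuronal nuclei, served to sort them, and they were captured on the 10x Genomics platform as gene expression and hashtag libraries. A hashtag is a barcoded antibody that marks the nuclei of 1 preparation, and the 2 hashtags here were named ARC and PVH. Nuclei were pooled and not assigned to mice, so the data were 1 sample with no replicates and no test between nuclei was possible. Of 11409 barcodes, 10170 passed limits of over 800 and under 5000 genes, up to 12000 UMIs and up to 1% of UMIs from mitochondrial genes. The ARC side were those with ARC hashtag UMIs at 0.8 times the PVH hashtag UMIs or more. The members had medians of 100 ARC and 79 PVH hashtag UMIs, and the other ARC-side nuclei 93 and 76. The ARC side thus does not fix the origin of a nucleus. Levels are given as UMIs per 1000000 (CPM) of summed UMIs, and every interval is a 95% interval that covers counting error only.

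Glutamatergic neurons load glutamate into synaptic vesicles with a vesicular glutamate transporter, and in the hypothalamus this is mainly VGLUT2, the product of Slc17a6. GABAergic neurons make GABA with the enzymes of Gad1 and Gad2 and load it with the transporter of Slc32a1. The ARC holds both kinds of neuron, among them the AGRP and POMC neurons that act on feeding. Alk encodes anaplastic lymphoma kinase, a receptor tyrosine kinase of the developing and adult nervous system, and Col11a1 encodes a chain of a fibrillar collagen.

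Membership followed depth and hashtag calls. The members had a median of 5786.5 UMIs and 2972.5 genes against 4746 UMIs and 2625 genes in the others. Members made up 1.73% of the ARC-side nuclei in the lowest of 4 equal bins of UMIs and 9.09% in the highest. HTODemux, the hashtag assignment the study used, called 27 of the 198 members doublets of both hashtags (13.6%) and 226 of the 4197 others (5.38%). When each nucleus was thinned at random to 1000 UMIs, 2 members and 0 of the others still held UMIs in at least 4 rule genes. The part of depth and doublets in the results was not tested. A pair of nuclei that share a hashtag escapes this call.

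By number of rule genes, 404 ARC-side nuclei held 3 and lay just outside the rule, 131 held 4 and lay just inside it, 49 held 5, 13 held 6, 5 held 7 and 0 held all 8. The nuclei with 3 rule genes had Slc17a6 at 59.5 CPM (50.2 to 70.1), and those with 4 had it at 81.2 CPM (63.1 to 103).

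The rule genes are described here as what chose the members. Alk lies on the minus strand of chr17:71868972-72604627 of GRCm38, and was at 222 CPM in the members against 39.3 in the others, with a UMI in 123 members. Cdh9, a type II cadherin of cell adhesion at chr15:16728756-16857094 on the plus strand, was at 247 against 91.3 CPM and was found in the most members, 134. Plekhh2 (chr17:84511895-84622138, plus), which encodes a protein with pleckstrin homology and FERM domains, was at 145 against 37.3 CPM. Col11a1 (chr3:114030540-114220718, plus) was at 153 against 39.1 CPM, with a UMI in 99 members. These counts show that no rule gene was common to all members.

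Gpc3, a glypican that carries heparan sulfate at the cell surface (chrX:52272426-52613950, minus), was at 153 against 33.6 CPM. Pcsk5, a proprotein convertase that cleaves secreted precursors (chr19:17432319-17837632, minus), was at 127 against 34.6 CPM. The remaining rule genes are antisense RNAs without a known protein. Tmem132cos (chr5:127256858-127281634, minus) was at 180 against 53.7 CPM and 2700069I18Rik (chr3:5177586-5220841, minus) at 102 against 28.2 CPM.

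A value of each rule gene that its own UMIs did not fix came from nuclei chosen by at least 4 of the other 7. All 8 genes were higher in such nuclei than in the rest of the ARC side, with intervals above 1. Alk had the highest ratio, at 155 CPM against 46.1 CPM (3.36-fold, 2.75 to 4.06) in 121 nuclei. Gpc3 stood at 2.65-fold (2.12 to 3.28), Plekhh2 at 2.36 (1.85 to 2.98), Pcsk5 at 2.08 (1.61 to 2.64), Tmem132cos at 2.06 (1.67 to 2.51), 2700069I18Rik at 1.91 (1.43 to 2.50) and Col11a1 at 1.82 (1.42 to 2.30). Cdh9 had the lowest ratio, 1.47-fold (1.20 to 1.79). These nuclei were still chosen by rule genes, which were picked together with earlier results of these data known. The ratios above 1 are thus a description and no support for the rule. The part of depth and doublets in the ratios was not tested. Rule genes were also read in pairs after the thinning given above, as the share of ARC-side nuclei with a UMI of a gene. The share in nuclei with the other gene of the pair was divided by that in nuclei without it. Over 28 pairs the median of this ratio was 1.13 (range 0.54 to 2.21), and 40 of 56 ordered pairs were above 1.

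**Figure D1:**
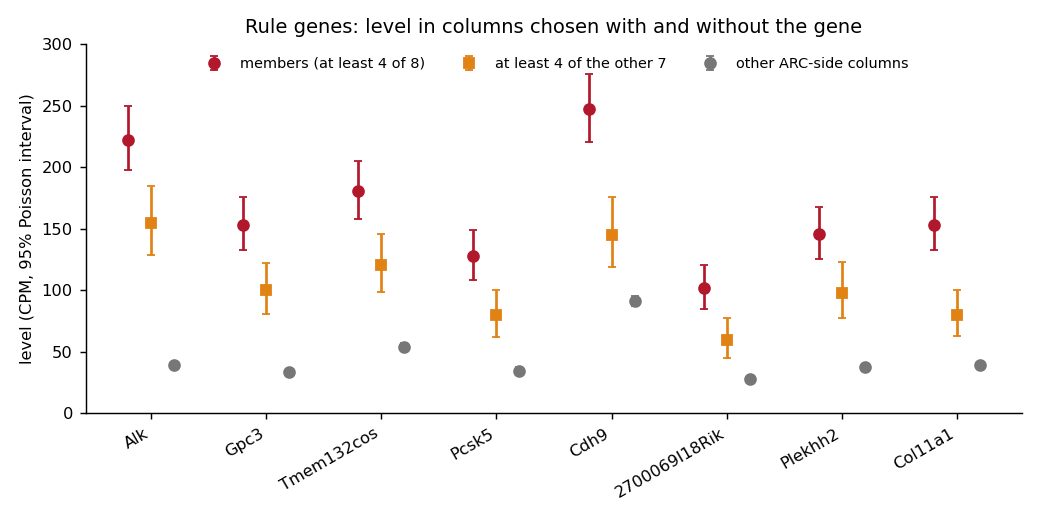
Level of each rule gene in CPM with its 95% Poisson interval in the 198 members, in nuclei with at least 4 of the other 7 rule genes, and in the other ARC-side nuclei. Without its own part in the choice each gene lies between the other levels, from 1.47-fold (Cdh9) to 3.36-fold (Alk) above the rest of the ARC side. The other rule genes still made this choice, so the levels are a description.

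Genes that overlap a rule gene were mostly higher with it. Of 6 such genes that passed the filter on low counts (10 UMIs expected in the members at the mean level of the ARC side), 5 were at least 2-fold higher in the members and the median log2 ratio was 1.22. Gm14582 and A630012P03Rik, both antisense to Gpc3, were at 3.97 and 3.82 times the level in the others, and Tmem132c, the protein-coding gene opposite Tmem132cos, was at 2.49 times. Gm49127, antisense to Cdh9, and Gm49969, antisense to Plekhh2, were at 2.18 and 2.05 times and are named after their values were seen. Of 7 genes apart from the rule genes but within 200 kb, 0 were 2-fold higher and the median log2 ratio was 0.21. Over all genes that passed the filter the share at least 2-fold higher was 0.247%, so 0 of 7 does not set these neighbours apart. The sources used here do not give the strand setting of the counting, and without strand the RNA of such overlapping pairs cannot be told apart.

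The label of glutamatergic neurons was checked with genes that the rule did not use. Slc17a6 was higher in the members, at 76.2 CPM (61.8 to 92.8) from 98 UMIs against 44.6 CPM (41.7 to 47.5) in the others, a ratio of 1.71 (1.37 to 2.11). Slc32a1 was lower, at 22.5 CPM (15.1 to 32.4) against 38.0 CPM (35.4 to 40.7), a ratio of 0.59 (0.39 to 0.86). Gad1 and Gad2, the GABA-making enzymes, stood at 0.74 (0.57 to 0.96) and 0.72 (0.59 to 0.86) of the other level, and Dlx6os1, an RNA of the Dlx locus of GABAergic neurons, at 0.46 (0.32 to 0.64).

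Most members did not show either vesicular transporter at this depth. A Slc17a6 UMI without one of Slc32a1 was seen in 55 members (27.8%, 21.7 to 34.6) and in 13.5% of the others. A Slc32a1 UMI alone was seen in 18 members (9.09%) and in 14.5% of the others, both in 9 members, and neither in 116 members (58.6%, 51.4 to 65.5). After thinning to 1000 UMIs, Slc17a6 was left in 18 of 198 members (9.09%, 5.48 to 14.0) and in 3.86% of the others (3.30 to 4.49). Before thinning, 64 members (32.3%) held it. In 29 ARC-side nuclei with markers of non-neuronal cells, 3 held a Slc17a6 UMI before thinning (10.3%) at a median of 3672 UMIs, and 0 of 29 after it, which by a limit of 3 counts allows a share of up to 10.3%; the exact interval of this 0 ends at 11.9%. The share in the members was thus not separable from background on this count of non-neuronal nuclei, whereas the interval of its CPM lay above that of the other ARC-side nuclei.

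The Slc17a6 level followed the number of rule genes. It was 37.2 CPM (32.4 to 42.5) in nuclei with none, 43.0 with 1, 48.2 with 2 and 59.5 with 3, and 82.1 (53.6 to 120) with 5. Slc32a1 was lower over the same range, from 41.1 CPM (36.1 to 46.7) with none to 32.4 (25.7 to 40.4) with 3 and 19.1 (10.9 to 31.0) with 4, and was 31.6 (15.1 to 58.0) with 5. Nuclei with 6 and 7 rule genes held 3 and 1 Slc17a6 UMIs in all, too few for a level.

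**Figure D2:**
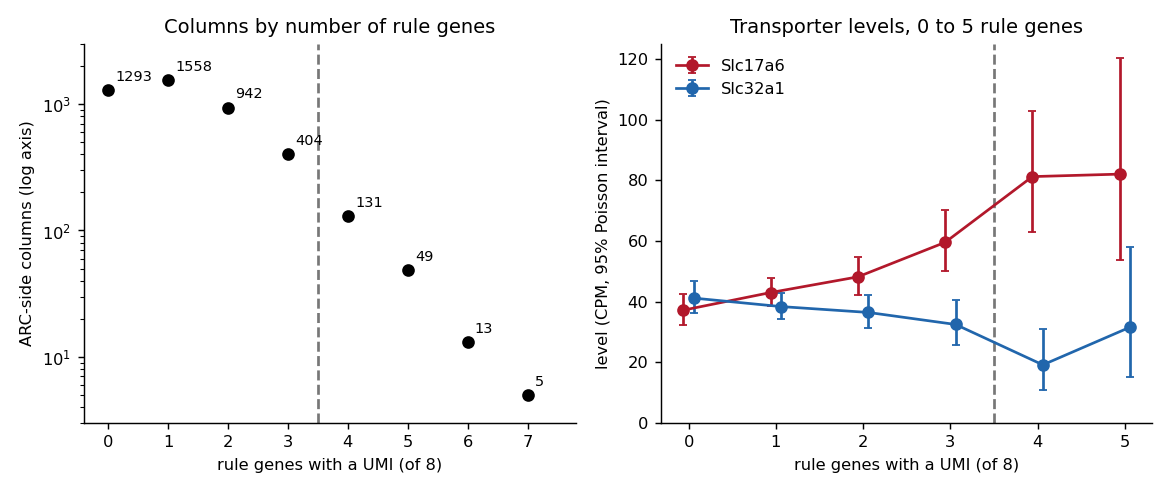
Left, number of ARC-side nuclei by the number of rule genes with a UMI, on a log axis; the dashed line marks the rule at 4. Right, Slc17a6 and Slc32a1 levels in CPM with 95% Poisson intervals; Slc17a6 goes from 37.2 CPM with none to 82.1 CPM with 5, and Slc32a1 from 41.1 to 31.6 CPM with its lowest value, 19.1 CPM, at 4.

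Members fell in several clusters when all ARC-side nuclei were grouped without the 8 rule genes. The Leiden method, run at the study's resolution of 0.55, returned 17 clusters, with members mainly in cluster 8 with 86 members (43.4% of members, 36.4 to 50.6) and cluster 1 with 53 members (26.8%). Cluster 8 had 253 nuclei, of which members were 34.0% (28.2 to 40.2), while members were 6.76% of the 784 nuclei of cluster 1 and at most 4.85% of any other cluster. Cluster 5 held 15 members, cluster 6 held 10, and each other cluster 8 or fewer.

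The rule genes, left out of the clustering, were high in cluster 8, although genes that overlap them, such as A630012P03Rik, were kept in. Cluster 8 was picked for its members, which the rule had chosen by these genes, so its levels of them are a description. Over the other clusters they ran from 2.28-fold for Col11a1 to 4.25-fold for Gpc3. The 167 nuclei of cluster 8 outside the rule held fewer than 4 rule genes by choice, so the rule itself lowered their levels. They had Alk at 96.3 CPM (75.9 to 121), Col11a1 at 60.8 CPM (44.9 to 80.7) and Gpc3 at 68.5 CPM (51.4 to 89.3). In all other clusters together, members included, these genes were at 42.7, 42.6 and 34.2 CPM. All 5 markers of the label (Alk, Slc17a6, Col11a1, Pcsk5 and Cdh9) were at least 1.5-fold higher in cluster 8. Its Slc17a6 level was 115 CPM (97.4 to 136), behind cluster 7 at 215 CPM and beside cluster 11 at 118 CPM, and its Slc32a1 level was 20.5 CPM.

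In cluster 1 the members shared Alk above all. A UMI of Alk was found in 90.6% of its 53 members and in 59.3% of the 86 members of cluster 8. The leading genes of cluster 1 were Lef1 and Ebf1, transcription factors, and Cga, which encodes a hormone subunit of the pituitary. Its members had a median of 8297 UMIs and 18 of the 53 were hashtag doublets. The 15 members in cluster 5 were led by Gpc3, found in 86.7% of them, and held 1 Slc17a6 UMI in all.

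**Figure D3:**
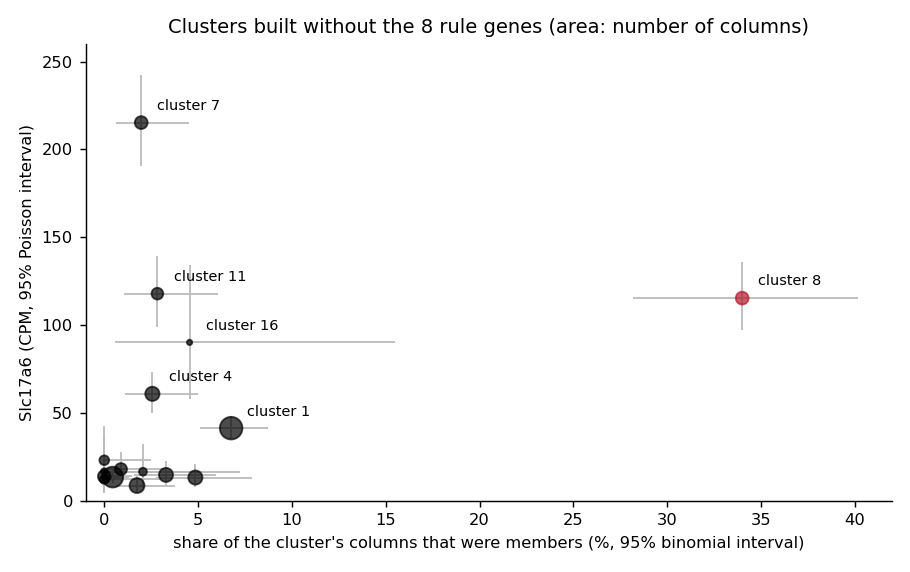
Each point is a cluster of at least 20 ARC-side nuclei built without the rule genes; the x axis is the share of its nuclei that were members (%, 95% binomial interval), the y axis its Slc17a6 level (CPM, 95% Poisson interval) and the area its number of nuclei. Cluster 8 stands apart with 34.0% members at 115 CPM, whereas cluster 7 has the highest Slc17a6 level, 215 CPM, with 1.97% members.

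The members inside and outside cluster 8 differed in depth, hashtag calls and transmitter genes. The 86 inside had a median of 5200.5 UMIs and 3 hashtag doublets (3.49%), and the 112 outside had 7426.5 UMIs and 24 doublets (21.4%). Slc17a6 was at 115 CPM (86.9 to 150) inside and 53.1 CPM (38.4 to 71.5) outside, where its interval took in the 44.6 CPM of the other ARC-side nuclei. Gad2 was at 50.3 CPM (32.2 to 74.9) inside and 117 CPM outside, and Gad1 at 23.1 and 63.0 CPM. Slc32a1 did not separate them, at 23.1 and 22.2 CPM. These transmitter genes were open to the clustering, so the contrast between the members is a description of it.

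A second clustering, chosen after these values were seen, also left out Slc17a6, Slc32a1, Gad1, Gad2 and the 35 genes of highest and lowest rank used below. Of its 16 clusters, the one with the most members held 107 nuclei, and 53 of these were members (49.5%, 39.7 to 59.4). All 53 were also among the 86 in cluster 8, and 1 of them was a hashtag doublet. The other 145 members lay outside this cluster, and 26 of them were hashtag doublets. These 145 had Slc17a6 at 62.1 CPM (47.7 to 79.5), Gad1 at 54.2 CPM and Gad2 at 110 CPM (90.9 to 133). The values of the cluster below are thus not those of most members. The overlapping genes Gm14582, A630012P03Rik and Tmem132c were left out here too.

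The 54 nuclei of this cluster that the rule had missed, at a median of 4259.5 UMIs, had Alk at 266 CPM (206 to 338) and Col11a1 at 175 CPM (127 to 235), against 42.5 and 41.5 CPM in the rest of the ARC side. Gpc3, Tmem132cos and 2700069I18Rik were also higher in the 54, at 139, 95.3 and 63.5 CPM against 35.4, 58.2 and 30.2 CPM. For the remaining rule genes the intervals took in the level of the rest. The rule had a part on both sides of this comparison. The 54 held fewer than 4 rule genes by choice, and the rest included the members outside this cluster. The comparison thus cannot show whether these genes belong to the cluster. Plekhh2 was at 35.7 CPM (16.3 to 67.8) in the 54 and 42.5 CPM in the rest. Cdh9 was at 111 CPM (73.9 to 161) and 98.8 CPM, and Pcsk5 at 51.6 CPM (27.5 to 88.3) and 38.8 CPM. Over the whole cluster Cdh9 ranked 6 among 16 clusters. In all 107 nuclei, members included, Alk was at 355 CPM and Col11a1 at 217 CPM, values that the rule had a part in. Slc17a6 was at 141 CPM in the 107, 3.20-fold above the rest (2.49 to 4.06) and second among the clusters. Gad2 was at 38.2 CPM, 0.30 of the rest (0.18 to 0.46). In the 54 Slc17a6 was at 155 CPM (110 to 212). Slc17a6 in the 53 members was at 128 CPM (89.5 to 179), an interval that overlaps that of the 54.

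Trhr, the receptor of thyrotropin-releasing hormone, was at 66.8 CPM in the cluster of 107, 10.1-fold above the rest of the ARC side (6.80 to 14.8). It stood at 55.1 CPM (30.8 to 90.8) in the 53 members and 79.4 CPM (48.5 to 123) in the 54 other nuclei. Pdzrn3, a ubiquitin ligase with PDZ domains, was at 95.4 CPM (11.8-fold, 8.43 to 16.2), second to a cluster at 188 CPM, with 143 CPM in the 53 and 43.7 CPM (21.8 to 78.2) in the 54. Lepr, the leptin receptor, was at 7.63 CPM, 0.17 of the rest (0.046 to 0.43), and the 53 members held 1 UMI of it. Low Lepr was not particular to this cluster, which ranked 14 among 16. The other clusters had a median of 12.9 CPM and a highest level of 118 CPM. In the first clustering cluster 8 had Lepr at 18.2 CPM and ranked 5 among 16, above a median of 11.9 CPM. In all 198 members Lepr was at 32.6 CPM against 45.0 CPM (0.73, 0.52 to 0.99). Trhr and Pdzrn3 were named for their level in the members and passed the filter on low counts only with the members' own UMIs. The cluster was picked for its members, so its ratios of these genes are a description.

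Across all genes, 11340 passed the filter on low counts, with the 8 rule genes and mitochondrial genes left out. Of these, 28 were at least 2-fold higher in the members (0.247%) and 157 were at 0.5 times the other level or less (1.38%). These calls rest on the fold alone. Of the 28 higher genes, 4 would have missed the filter at the level of the others and passed it only with the members' own UMIs, Pdzrn3, Trhr, Glipr1 and Gm45235, the last pair named after their values were seen. Among the 7600 genes with at least 30 UMIs expected in the members, 9 were higher (0.118%) and 26 lower (0.342%) by the same folds. The median log2 ratio of all 11340 genes was -0.04. Genes are named here from the 20 with the highest lower limit and the 15 with the lowest upper limit of the interval.

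Pdzrn3 led the higher genes, at 49.7 CPM (38.3 to 63.5) against 7.73 CPM, a ratio of 6.44 (4.74 to 8.65), from 64 UMIs in 39 members. At the level of the others 9.94 UMIs would be expected in the members, just under the filter, so its passing rested on the group where it was high. Of these UMIs, 57 lay in the 86 members of cluster 8, which had it at 120 CPM (90.5 to 155), and 7 in the 112 others, at 8.64 CPM. The 29 non-neuronal nuclei held 15 Pdzrn3 UMIs, a level of 138 CPM (77.3 to 228). Of 7 markers of astrocytes and tanycytes, Slc1a3, Aqp4, Gja1, Agt, Ntsr2 and Rax were at 0 UMIs in the 86, and 51 UMIs came from Col23a1, which was at 107 CPM against 46.1 CPM in the other ARC-side nuclei. The part of non-neuronal RNA in the Pdzrn3 level was not tested.

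Receptors and signalling genes were among the higher genes. Trhr was at 21.8 CPM (14.5 to 31.4) against 7.16 CPM, 3.04-fold (1.96 to 4.57), from 28 UMIs in 21 members. It too passed the filter only with the members' own UMIs, as 9.21 would be expected at the level of the others. Ror1, a Wnt receptor of the tyrosine kinase family, was 2.87-fold higher (2.02 to 3.98), and Scube1, a secreted EGF-domain protein, 2.80-fold (1.94 to 3.95). The phosphodiesterases Pde1c and Pde4b, which break down cyclic nucleotides, were 2.30-fold (1.94 to 2.71) and 1.79-fold (1.67 to 1.91) higher. Sema3c, a secreted guidance cue, was 2.64-fold higher (1.77 to 3.83). Scube1, like Pdzrn3, lay mainly in the members of cluster 8 (65.0 against 9.88 CPM), while Sema3c did not (23.1 against 27.2 CPM). Both Scube1 and Pdzrn3 were open to that clustering. In the second, which left them out, 20 Scube1 UMIs lay in the 53 members of the leading cluster (73.4 CPM) and 19 in the other 145 (18.7 CPM).

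Genes of high level had smaller ratios. Il1rapl1, a synaptic adhesion protein, was at 2554 CPM against 1373 CPM (1.86-fold, 1.79 to 1.93) with a UMI in 194 members, and Lingo2, a leucine-rich repeat protein, at 2223 against 1253 CPM (1.77-fold, 1.71 to 1.84). Etl4 was 2.17-fold higher, Tmem163, a zinc transporter, 1.94-fold, and Adarb2, a member of the RNA-editing family without known activity, 1.90-fold. In the non-neuronal nuclei Tmem163 was at 1087 CPM and Pde4b at 3011 CPM, against 253 and 744 CPM in the members. The part of non-neuronal RNA in these levels was not tested. Also among the 20 were Gm14582, A630012P03Rik and Tmem132c, given above, A330102I10Rik (2.49-fold), Gm28307 (2.54), Lmo7 (2.37) and Tspan18 (2.40). In nuclei outside the ARC side with fewer than 4 rule genes, Adarb2 was at 553 CPM against 263 CPM in the members. A330102I10Rik was at 117 against 107 CPM and Gm28307 at 37.8 against 37.3 CPM. Each other gene of the 20 was lower there than in the members. The part of such nuclei or their RNA in these levels was not tested.

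**Figure D4:**
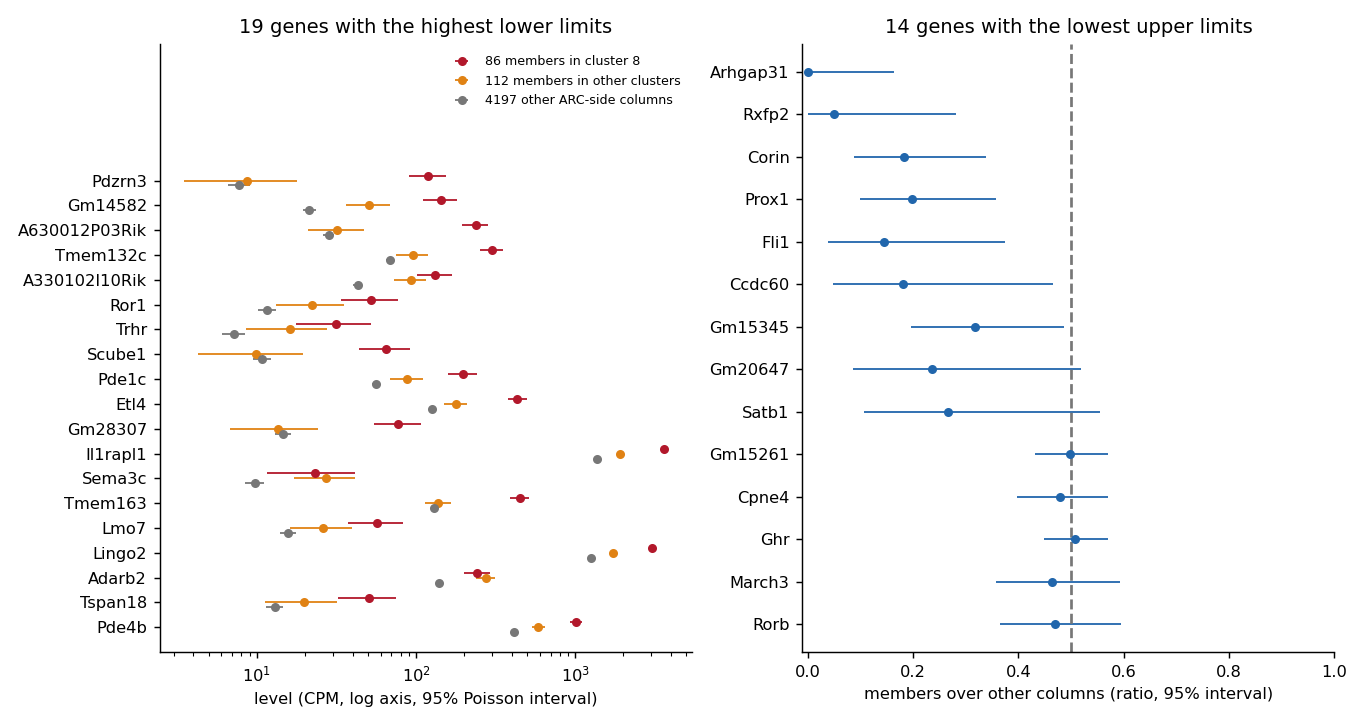
Left, 19 of the 20 genes with the highest lower limit of the ratio of members to other ARC-side nuclei, as levels in CPM (log axis, 95% Poisson intervals) in the 86 members of cluster 8, the 112 members elsewhere and the other nuclei. Right, ratio of members to others with its 95% interval for 14 of the 15 genes with the lowest upper limit, with a dashed line at 0.5; Pdzrn3 is at 120 CPM in cluster 8 members and 8.64 CPM in the rest, and Arhgap31 has no UMI in the members.

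The lower genes included markers of other ARC neurons. Arhgap31, which encodes a GTPase-activating protein, had 0 UMIs in the members against 17.6 CPM in the others, at least 7.56-fold lower with a floor of 3 UMIs over the members; the 95% interval of the ratio ends at 0.16. Rxfp2, a relaxin family receptor, had 1 UMI (ratio 0.050, 0.0013 to 0.28). Satb1, a chromatin-organising factor, stood at 0.27 (0.11 to 0.55) of the other level. Corin, a protease found in AGRP neurons, was at 7.77 against 42.3 CPM (0.18, 0.088 to 0.34), and Prox1, a homeobox factor, at 8.55 against 43.1 CPM (0.20, 0.099 to 0.36). With a rule of at least 3 rule genes the log2 ratio was -0.11 for Rxfp2, -0.86 for Prox1 and -0.83 for Satb1, none of them past 2-fold.

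Ghr, the growth hormone receptor, was at 223 against 440 CPM (0.51, 0.45 to 0.57). It was lower in the members of cluster 8, at 56.6 CPM, than in the other members, at 321 CPM. Rorb, an orphan nuclear receptor, stood at 0.47 (0.36 to 0.60), Cpne4, a calcium-binding copine, at 0.48 (0.40 to 0.57) and March3, a ubiquitin ligase, at 0.46 (0.36 to 0.59). Fli1, Ccdc60, Gm20647 and Gm15345 were between 0.15 and 0.32 of the other level, and Gm15261 was at 0.50.

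The genes of 18 lists were read by role, beside a median log2 ratio of -0.04 and shares of 0.247% higher and 1.38% at 0.5 or less over all genes that passed the filter. In a list of 8 to 51 genes, 1 gene is 12.5% to 1.96%. Of the hypothalamic transcription factors, 46 passed the filter, 1 was 2-fold higher (2.17%) and 9 were at 0.5 or less (19.6%), with a median log2 ratio of -0.12. Among the 9 were Satb1, Rorb, Otp, Six6, Sox6, Tshz1, Bcl11b and St18. Otp, a factor of AGRP and other peptide neurons, was at 12.4 against 25.3 CPM (0.49, 0.28 to 0.80). St18 was at 0.45 (0.29 to 0.66), and 2.10 CPM in members of cluster 8 against 30.9 CPM in the other members. Zfhx4, which overlaps the rule gene 2700069I18Rik, was at 1.71 (1.44 to 2.00), and Nkx2-1, a factor that patterns the ventral hypothalamus, at 1.65 (1.09 to 2.42). Bnc2, which marks the neurons the study is about, had 2 UMIs in the members.

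Among receptors of neuropeptides, 22 passed the filter, 1 was 2-fold higher (Trhr, which passed the filter only with the members' own UMIs) and 4 were at 0.5 or less (Rxfp2, Npy2r, Oprd1 and Nmur2, 18.2%), with a median log2 ratio of 0.0017. Npy2r, a receptor of neuropeptide Y, was at 20.2 against 45.5 CPM (0.44, 0.29 to 0.65). The orphan receptor Gpr101 was at 1.95 (1.37 to 2.70) and Npsr1, the neuropeptide S receptor, at 1.79 (1.32 to 2.39). Of 18 hormone receptors 0 passed 2-fold in either direction (median log2 ratio -0.02). Thrb, a thyroid hormone receptor, was the highest of them at 308 against 190 CPM (1.62, 1.46 to 1.79), and Esr1, the estrogen receptor, stood at 1.07 (0.90 to 1.25).

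No neuropeptide gene passed 2-fold in either direction. Of 23 that passed the filter, 18 were below the other level and the median log2 ratio was -0.19. Npy was at 70.7 against 123 CPM (0.57, 0.46 to 0.71), Agrp at 156 against 178 CPM (0.88, 0.76 to 1.01) and Pomc at 122 against 161 CPM (0.76, 0.64 to 0.89). In the 29 non-neuronal nuclei Npy was at 120 CPM (63.7 to 205), Agrp at 110 CPM (57.1 to 193) and Pomc at 184 CPM (112 to 284). The part of background RNA in these levels was not tested. Of 13 genes of peptide processing 1 was lower (Furin, 0.41, 0.15 to 0.91), with a median log2 ratio of -0.16. Of 5 immediate early genes 0 passed 2-fold, and their median of -0.24 ran from -0.40 to 0.34 under other choices of the members and the others. Of 16 monoamine and acetylcholine genes 0 passed 2-fold (median 0.045), and Hrh1, a histamine receptor, stood highest at 1.95 (1.35 to 2.75).

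Of 7 genes of glutamatergic transmission 0 passed 2-fold (median log2 ratio 0.11), and Slc17a6 had the highest ratio of them. Of 8 genes of GABAergic transmission 1 was lower (Dlx6os1), with 6 below the other level and a median of -0.45. Of 21 glutamate receptor genes 0 passed 2-fold, and the median was 0.19, with Gria1 at 1.37 (1.29 to 1.45). Of 19 receptors of GABA and glycine 0 passed 2-fold (median 0.042).

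Cadherins were mostly above the other level. Without the rule gene Cdh9, 26 passed the filter, 21 of them above the other level and 0 past 2-fold, with a median log2 ratio of 0.32, which was 0.0066 against other nuclei with a Slc17a6 UMI. Cdh6 stood at 1.86 (1.44 to 2.38), Cdh22 at 1.58 (1.35 to 1.83) and Cdh10 at 1.53 (1.34 to 1.75). Of 15 other collagens 1 was lower (Col24a1, 0.49, 0.23 to 0.91) and the median was 0.033. Of 25 heparan sulfate genes, the group of Gpc3, 0 passed 2-fold (median -0.08). Of 51 axon guidance genes 1 was higher (Sema3c, median -0.03).

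Partners of Alk in signalling did not pass 2-fold. Of 20 genes of Alk ligands and signalling 0 passed 2-fold, with a median log2 ratio of -0.08. Alkal2, an Alk ligand, was at 7.77 against 9.67 CPM (0.80, 0.38 to 1.51), Ltk, the related kinase, at 1.22 (0.70 to 2.00), and the ligand gene Alkal1 had 0 UMIs in the members. Of 48 calcium, sodium and HCN channels 1 was higher, with a median of 0.041. Of 48 potassium channels 1 was lower (Kcnk9, 0.40, 0.17 to 0.79) and the median was -0.11.

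**Figure D5:**
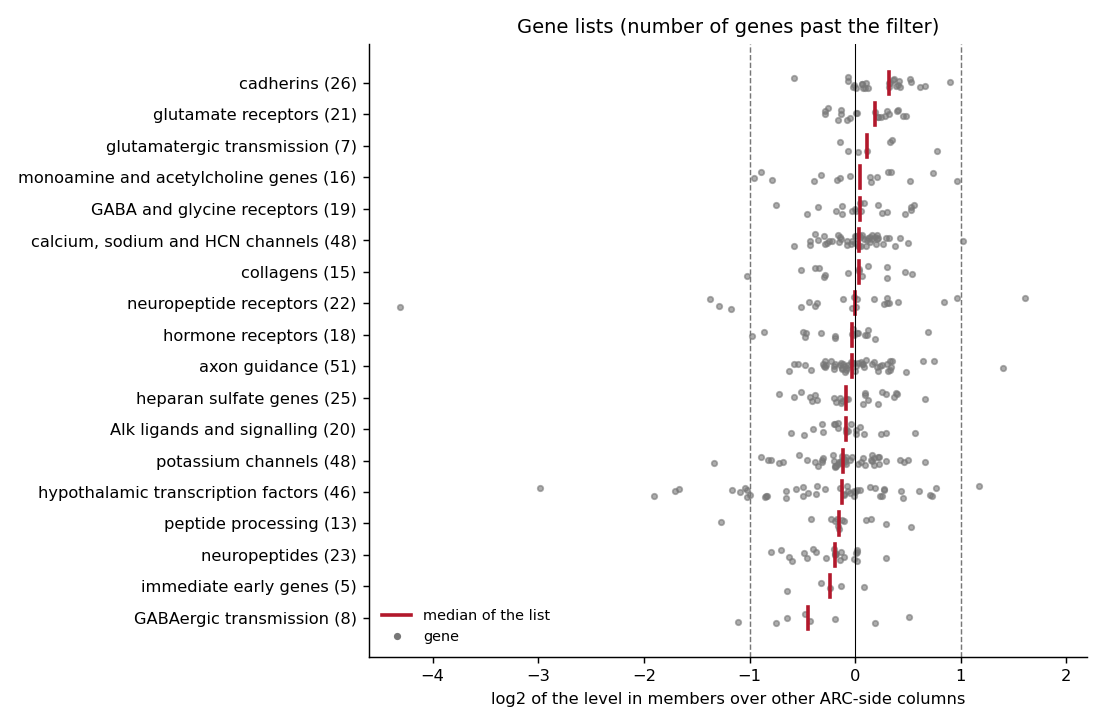
Each point is a gene that passed the filter, placed by the log2 ratio of its level in the members to that in the other ARC-side nuclei; red bars are list medians and dashed lines mark 2-fold. Medians run from -0.45 for GABAergic transmission to 0.32 for cadherins, and the lowest point, a neuropeptide receptor, is Rxfp2 with 1 UMI in the members.

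The members were also set beside 565 other ARC-side nuclei with a Slc17a6 UMI and none of Slc32a1. Of the 11340 genes, 76 were at least 2-fold higher in the members than in these nuclei (0.67%) and 176 were at 0.5 times their level or less (1.55%). The filter was set on all ARC-side nuclei, whereas the 565 held 3121551 UMIs against 21099131 in all other ARC-side nuclei. With fewer counts more genes pass a fold by counting error, so these numbers are not comparable with those against all others. Pdzrn3 was 3.70-fold higher in the members, Scube1 4.11-fold, Lmo7 3.76-fold, Sema3c 3.08-fold and Etl4 2.84-fold. Trhr stood at 2.06-fold. Tmem163 and Pde4b, at 1.17-fold and 1.02-fold, were at nearly the same level in both.

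The same rule was applied to the PVH side, where 234 of 5775 nuclei held at least 4 of the 8 genes (4.05%, 3.56 to 4.59), at a median of 6145 UMIs. Among 11918 genes, 7 were at least 2-fold higher in them than in the other PVH-side nuclei (0.0587%) and 128 were at 0.5 or less (1.07%). Slc17a6 stood at 0.95 (0.78 to 1.16), Slc32a1 at 0.99, Trhr at 0.79, Scube1 at 1.07 and Pdzrn3 at 1.52. Alk was already at 141 CPM in the other PVH-side nuclei, against 39.3 CPM in the other ARC-side nuclei. The difference between the sides was not tested.

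Markers of other cell classes were read as sums. The 5 neuron markers summed to 2430 CPM against 2242 CPM in the others, and the oligodendrocyte markers to 59.1 against 112 CPM. The AGRP markers stood at 0.66 of the other level (0.60 to 0.74), those of POMC neurons at 0.82 (0.74 to 0.92) and those of dopaminergic neurons at 0.71 (0.57 to 0.87). In the non-neuronal nuclei these 3 sums were 230, 276 and 64.5 CPM, against 274, 254 and 72.3 CPM in the members. The part of background RNA in them was not tested. Markers of KNDy neurons, which make kisspeptin, neurokinin B and dynorphin, were at 1.04 (0.90 to 1.20) and those of the ventromedial hypothalamus at 1.34 (0.99 to 1.79), and both intervals took in 1.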

How the data were processed

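The matrix that the authors deposited held whole-number UMI counts of 32285 genes, made with Cell Ranger 5.0 per the labels (4.0.0 in the header of the matrix) on mm10 and without normalization, with the counts of 2 hashtags beside them. No annotation of nuclei was used here, and the limits on genes, UMIs and mitochondrial share are those of the study's methods. Unlike the study, which went on with hashtag singlets, the ARC side was set by the ratio of hashtag UMIs, and 253 HTODemux doublets and 479 negatives among its 4395 nuclei were kept. Gene positions came from GENCODE M21 (GRCm38), in which 32158 gene identifiers were found.

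The members and the gene lists were chosen with earlier results of these data known, so no pattern here is independent evidence for the rule. Summed counts were turned into CPM with exact Poisson intervals, intervals of ratios treat the members' counts as an exact binomial share of both counts, and shares have exact Clopper-Pearson intervals. All cover counting error only. The total was 1286776 UMIs in the members and 21099131 in the other ARC-side nuclei. Named genes were the rule genes, list genes past 2-fold first, and the 20 highest and 15 lowest by the limits of the interval. A few genes that the rule would name are not reported here. Genes outside this rule are named for comparison and were picked after their values were seen.

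Clustering used 10000-scaled log values of 2000 variable genes, 30 components, 20 neighbours and leidenalg 0.10.2 (Python 3.11.15, scikit-learn 1.9.0, numpy 2.4.6, scipy 1.17.1). HTODemux was run in Seurat 5.3.0 (R 4.3.3) with a positive quantile of 0.8. Non-neuronal nuclei had a UMI in at least 4 non-neuronal markers and in fewer than 3 of 5 neuron markers. The ratio step was tested on simulated data of the members against the others.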

Additional observations from a re-analysis of the deposited data

Results flagged for a closer look

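On the PVH side, which has no part in the comparison of ARC-side nuclei, 4.05% of nuclei held at least 4 rule genes (3.56 to 4.59). It is listed because it exceeds the 0.0519% that a count of 0 would allow, and its interval overlaps that of the ARC side, 4.51% (3.91 to 5.16). Slc17a6 there was at 70.4 CPM (58.0 to 84.7) against 73.7 CPM in the other PVH-side nuclei.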

How the results depend on the processing

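With at least 3 or at least 5 rule genes the members numbered 602 or 67, and 26.2% or 59.7% of them lay in the leading cluster. With ARC hashtag UMIs at 2 times PVH or more there were 32 members, Slc17a6 had a log2 ratio of 1.11, and 3 named genes changed direction, Sema3c to -0.18, Adarb2 to -0.50 and Cpne4 to 0.0082. Among HTODemux singlets 53.4% of members lay in the leading cluster. Without Alk, Cdh9 or Plekhh2 in the rule there were 121, 114 or 120 members, with 52.1%, 52.6% or 52.5% in the leading cluster. Against other nuclei chosen for a Slc17a6 UMI, the log2 ratio of Slc17a6 was -1.75, which that choice itself fixes. The share of members with a Slc17a6 UMI was 32.3% without thinning and 14.2% at 2000 UMIs, where the others had 6.95%. Genes past 2-fold in either direction, 185 in the report, numbered 800 with 3 UMIs expected, 35 with 30, and 2472 with 1 UMI in each group, where the higher outnumbered the lower by 1653 to 819. At folds of 1.5 and 3 they numbered 848 and 32. The leading cluster held 27.8% of members at a resolution of 0.3 and at 1, and 26.8% without the named genes. The log2 ratio of Slc17a6 was 1.37 in members of the leading cluster and 0.25 (-0.22 to 0.69) in the other members. The cause of these moves was not tested.

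Slc17a6 stayed higher and Slc32a1 lower in the members under the other alternatives run, though with at least 5 rule genes both intervals took in no change (log2 0.54, -0.04 to 1.06, and -0.37, -1.28 to 0.42). The interval of Slc32a1 also took in no change in members of the leading cluster, with ARC at 2 times PVH, against nuclei with a Slc17a6 UMI, and without Tmem132cos, 2700069I18Rik or Plekhh2 in the rule. Of 530 values of 34 named genes under 16 settings, 397 stayed within their interval, and of 288 list medians 209 moved by at most 0.1. Of 28 named genes past 2-fold, 18 were under it with at least 3 rule genes, among them Rxfp2 (-0.11), Prox1 (-0.86) and Ccdc60 (-0.41), as were 12 of 22 with ARC at 2 times PVH, among them Trhr (0.40) and Scube1 (0.74). In each other setting 4 or fewer were. The medians of 10 of the 18 lists took the other sign in at least 1 of 16 settings, that of neuropeptide receptors in 13, and cadherins had the highest median in 11. No paired analysis was possible because the data are 1 pooled sample. In the members 10 UMIs correspond to 7.77 CPM, which limits what could be read of rarer genes.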
